A study of Homo sapiens and Mus musculus with 21 samples.

Results

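This account follows 9 genes that regulate fibrinolysis and coagulation through 21 RNA sequencing libraries of mesothelioma, the cancer that arises from the lining of the pleura. The genes are SERPINB2, SERPINE2, PLAT, PLAU, PLAUR, TFPI, TFPI2, F3 and THBD. They were picked by symbol, and all 9 were found among the 60674 genes of each human count table and, as title-case orthologs, among the 41214 genes of the mouse table. The set was chosen from results of these same libraries, in which SERPINB2 and F3 in H2810 with shBAP1, F3 and THBD in MSTO-211H with shBAP1, and PLAT in H2810 with GSK126 stood out. Values from those 3 comparisons, and from the response differences built on them, are therefore given as a description with their standard error and without a p-value. The comparisons that played no known part in the choice are GSK126 in H2731, the 2 comparisons between lines and the mouse comparison. The 2 comparisons between lines reuse control libraries of the comparisons behind the choice, so their p-values are not independent of it.

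Fibrin clots are dissolved by plasmin, which is cut from plasminogen by tissue-type activator (PLAT) or urokinase (PLAU), the latter held at the cell surface by its receptor PLAUR. Serpins such as SERPINB2 and SERPINE2 trap these proteases. Coagulation starts when tissue factor (F3) on a cell meets factor VII, and TFPI blocks the complex they form. Thrombomodulin (THBD) turns thrombin toward activating protein C. Mesothelial cells make both activators and inhibitors, and the balance is known to govern fibrin turnover on pleural surfaces.

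The human lines are established mesothelioma lines. The drug experiment used H2810 (genotype label: Bap1 wildtype) and H2731 (genotype label: Bap1 mutated), which received the vehicle DMSO or GSK126, an inhibitor of the histone methyltransferase EZH2, with 2 libraries for each line and treatment. In the knockdown experiment, H2810 and MSTO-211H carried either a random shRNA, the control, or a hairpin that targets BAP1, called shBAP1, again with 2 libraries each. BAP1 is a histone deubiquitinase. The mouse mesothelioma cells were BNC (Bap1-/-;Nf2-/-;Cdkn2ab-/-, 3 libraries) and NC (Nf2-/-;Cdkn2ab-/-, 2 libraries), so loss of Nf2 and Cdkn2ab is common to both. Dose, treatment time, hairpin sequence, the promoter behind the mouse deletions and whether replicates were separate cultures are not given in the sources used here. The p-values measure only the spread between these libraries, which may be technical.

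Library totals ran from 13693927 to 23217215 counts. BAP1 stood at 115 and 117 CPM (counts scaled to the library size) in H2810 with the random hairpin and at 13.4 and 20.3 with shBAP1. In MSTO-211H it stood at 100 and 103 against 15.4 and 17.7. In the mouse, Bap1 was at 30.5, 33.3 and 44.1 CPM in BNC and 60.2 and 62.0 in NC. The deleted exons are not given, so these Bap1 reads do not check the genotype. The summed level of 9 mesothelial markers was 1615 to 11120 CPM in the human libraries, 133 to 908 in mouse BNC and 974 to 2278 in mouse NC. Most of the human sum was KRT8 and KRT18, at 2112 and 996 CPM in H2810 with DMSO. They averaged 4154 and 4761 CPM in MSTO-211H with the random hairpin. In H2810 with DMSO, MSLN averaged 1.97 CPM, UPK3B 0.053, KRT19 0.024 and LRRN4 0. There CALB2 averaged 174 CPM, WT1 22.8 and PDPN 20.3. In the mouse, Msln, mesothelin, ran from 0.351 to 561 CPM in BNC and from 519 to 880 in NC. Among the BNC libraries, Krt18 ran from 0 to 45.7 CPM, Pdpn from 0.220 to 91.4 and Wt1 from 38.2 to 130. Calb2 had no counts in any mouse library. The endothelial marker sum (8 genes) was 1.65 to 23.5 CPM in the human libraries, with CDH5 at 0 in 6 of the 8 groups and at most 0.114 CPM on average in the others. The leukocyte sum (7 genes) was 1.06 to 8.13 CPM. In bulk RNA, fewer cells expressing a gene and less RNA per cell cannot be told apart.

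The human files give these positions for the genes, which equal GENCODE v44 gene bounds on GRCh38. PLAT lies at chr8:42174718-42207709, PLAU at chr10:73909177-73917496 and PLAUR at chr19:43646095-43670547. SERPINB2 lies at chr18:63871692-63903888 and SERPINE2 at chr2:223975045-224039318. TFPI lies at chr2:187464230-187565760, TFPI2 at chr7:93885396-93890753, F3 at chr1:94529173-94541759 and THBD at chr20:23045633-23049672. Exons of PLAU share 31% of their bases with the antisense gene C10orf55, and 20% of the SERPINB2 exon bases are shared with ENSG00000289724 on the same strand. The strand setting of the counting is not given, so reads there cannot be assigned to 1 gene with certainty.

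A gene was called when its adjusted p was under 0.05 in edgeR's quasi-likelihood test, with Benjamini-Hochberg adjustment over every gene tested in the table. Levels are CPM of the scaled library size. All 9 genes passed the filter on low counts in both human tables, but PLAU and THBD passed it through H2731 or MSTO-211H, and SERPINB2 and TFPI2 passed it in the drug table through H2810. Those genes had to differ between the lines, so they are left out of the counts of calls between lines and of response differences. These counts, and the medians, cover the members with over 20 counts in each group compared, a limit chosen after the counts were seen.

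The knockdown comparison asks what loss of BAP1 does to these genes in 2 lines. In H2810, SERPINB2 and PLAUR were called higher and F3, SERPINE2, PLAT and TFPI lower. In MSTO-211H, PLAU and SERPINB2 were called higher and THBD, F3, PLAT, SERPINE2, PLAUR, TFPI2 and TFPI lower. F3, SERPINE2, PLAT and TFPI were thus lower with shBAP1 in both lines. Of all genes tested, 45.8% were called in H2810 (22.5% higher, 23.3% lower) and 46.2% in MSTO-211H (21.7% higher, 24.5% lower), beside 2 higher and 4 lower of the 7 with enough counts in H2810 and 2 higher and 7 lower of the 9 in MSTO-211H. The median log2 fold change was -0.215 for those 7 in H2810 and -0.84 for the 9 in MSTO-211H, where the median of all genes was -0.026 and -0.0214. Since these contrasts were used to choose the genes, the shares are printed for scale only. The sum of 6 fibroblast markers moved too, with 6124 and 6739 CPM under the random hairpin and 4338 and 5012 with shBAP1 as the lowest and highest in H2810. In MSTO-211H these were 179.5 and 197.4 against 95.5 and 99.4. Most of the H2810 sum was COL1A1, which averaged 5627 CPM with the random hairpin and 4115 with shBAP1. DCN, PDGFRA and PDGFRB were lower there too, while THY1 rose from 53.6 to 82.0 CPM and LUM had no counts. In MSTO-211H, COL1A1, PDGFRB, LUM and DCN were lower. There THY1 went from 22.4 to 23.8 CPM and PDGFRA from 0.144 to 0.206. The mesothelial sum in MSTO-211H was 8760 to 9469 CPM with the random hairpin and 10590 to 11120 with shBAP1. The part of these markers in the 9 genes' values was not tested.

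**Figure D1:**
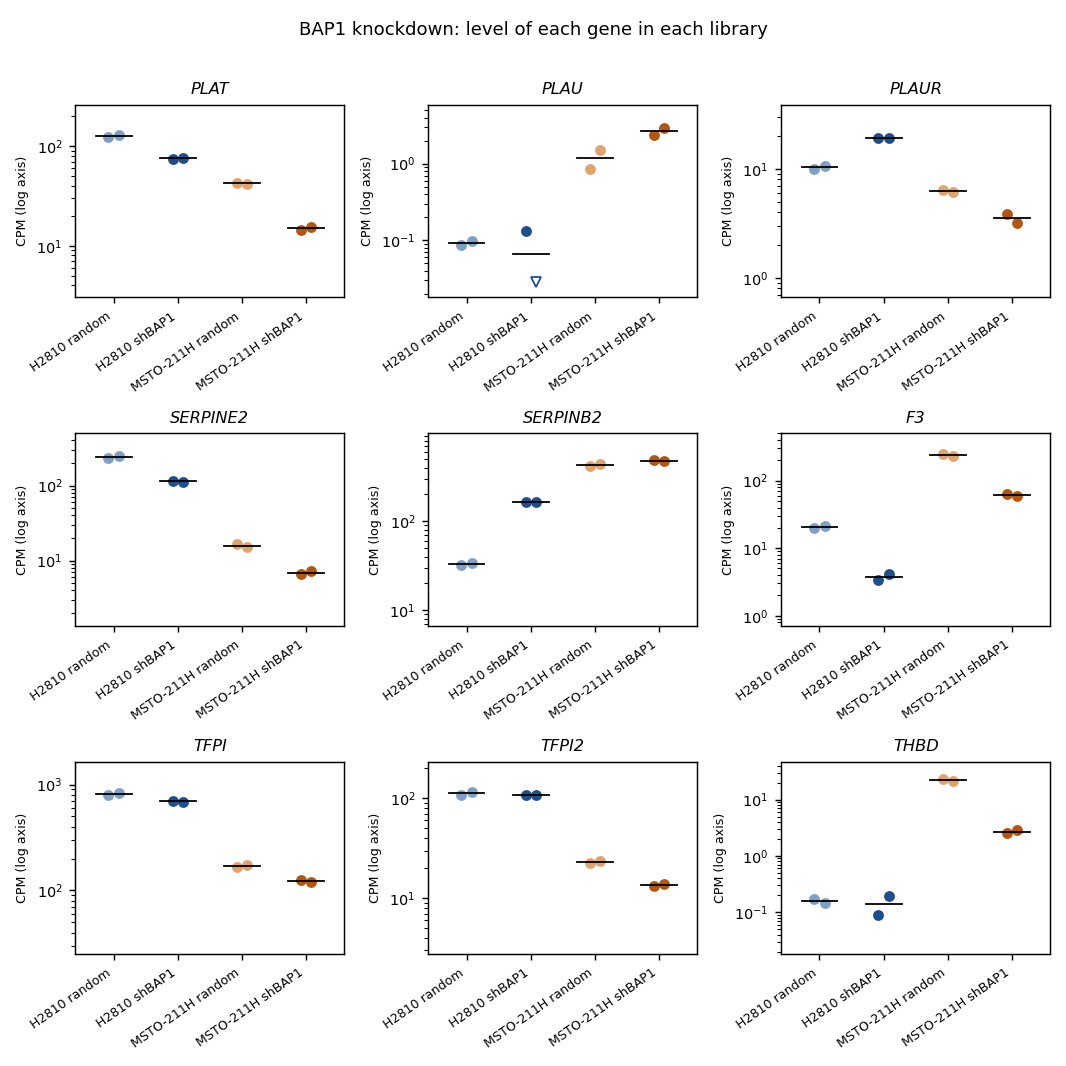
Level of each gene in each knockdown library, in CPM on a log axis. Points are the 2 libraries of each group, lines their mean, and the open triangle marks a library with 0 counts. F3, PLAT, SERPINE2 and TFPI lay lower with shBAP1 in both lines, while PLAUR lay higher in H2810 and lower in MSTO-211H.

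Of the plasminogen activators, PLAT stood at 124 and 129 CPM in H2810 with the random hairpin and at 74.0 and 76.9 with shBAP1. In MSTO-211H it stood at 42.5 and 42.0 CPM against 14.6 and 15.5. The log2 fold changes were -0.75 ± 0.05 (SE) in H2810 and -1.49 ± 0.06 in MSTO-211H. PLAU, the urokinase gene, was scarce. MSTO-211H had 18 and 31 PLAU counts under the random hairpin and 50 and 66 with shBAP1 (0.861 and 1.49 against 2.40 and 2.91 CPM), a log2 fold change of 1.17 ± 0.31. This call ended with DESeq2 (1.20), without random hairpin replicate 1 (0.83) or without shBAP1 replicate 2 (1.03). In H2810, PLAU had 2 and 2 counts against 3 and 0, which allows no fold.

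PLAUR, the urokinase receptor, moved in opposite directions in the 2 lines. It stood at 10.0002 and 10.6 CPM in H2810 with the random hairpin and at 19.1 and 19.2 with shBAP1, a log2 fold change of 0.90 ± 0.09. In MSTO-211H it stood at 6.36 and 6.17 CPM against 3.85 and 3.17, a log2 fold change of -0.84 ± 0.13. The response in MSTO-211H minus that in H2810 was -1.74 ± 0.16 on the log2 scale and was called.

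Among the inhibitors, SERPINB2, an inhibitor of urokinase also called PAI-2, had the largest rise of the 9 in H2810. It stood at 32.1 and 33.6 CPM with the random hairpin and at 164.7 and 165.6 with shBAP1, a log2 fold change of 2.33 ± 0.05. Both shBAP1 libraries lay far above both control libraries, but SERPINB2 was chosen from this comparison. In MSTO-211H, where SERPINB2 was already high, it stood at 412.5 and 437.7 CPM against 485.2 and 472.9, a log2 fold change of 0.17 ± 0.05. That call ended without random hairpin replicate 1 (0.13) or without shBAP1 replicate 1 (0.16). SERPINB2 responses differed by -2.16 ± 0.07 between MSTO-211H and H2810.

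SERPINE2, protease nexin 1, which inhibits thrombin and plasminogen activators, fell by a similar factor in both lines. It stood at 233 and 248 CPM in H2810 with the random hairpin and at 116 and 112 with shBAP1, a log2 fold change of -1.07 ± 0.06. In MSTO-211H, at 16.6 and 15.1 CPM against 6.54 and 7.27, the log2 fold change was -1.20 ± 0.09. The difference between the 2 SERPINE2 responses was -0.12 ± 0.11 and was not called, so a difference of this size cannot be told from 0 here.

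F3, tissue factor, was lower with shBAP1 in both lines, as were SERPINE2, PLAT and TFPI, whose sequences are not printed. TFPI2, an inhibitor of the plasmin and tissue factor pathways, was called lower in MSTO-211H and not in H2810. The sequences before the start sites of F3 and TFPI2 are printed as examples only. Each is 250 bases before the RefSeq start site on the minus strand of GRCh38.p14, at chr1:94541760-94542009 for F3 and chr7:93890754-93891003 for TFPI2, 5′ to 3′. Capitals mark TGANTCA, the letters bound by AP-1 factors, which read the same on both strands.
F3: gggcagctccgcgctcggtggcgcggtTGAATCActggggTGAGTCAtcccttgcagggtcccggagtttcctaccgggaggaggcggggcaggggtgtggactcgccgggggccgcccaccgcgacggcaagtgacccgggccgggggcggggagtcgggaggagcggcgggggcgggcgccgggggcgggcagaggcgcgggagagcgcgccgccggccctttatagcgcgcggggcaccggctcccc
TFPI2: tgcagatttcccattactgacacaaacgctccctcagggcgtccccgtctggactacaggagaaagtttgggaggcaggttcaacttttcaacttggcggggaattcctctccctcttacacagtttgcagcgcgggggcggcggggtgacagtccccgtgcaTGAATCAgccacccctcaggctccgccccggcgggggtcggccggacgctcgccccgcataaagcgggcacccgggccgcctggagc

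The F3 window holds 2 such matches, starting at -223 and -210 from the start site, and the TFPI2 window 1, at -87. RefSeq windows of 250 bases before to 50 after a start site were searched for 7 of the 9 genes, with 9 windows between them. TGANTCA was in 4 of the 9 windows, 1 each for F3, TFPI2, PLAUR (at -186) and SERPINB2 (at -102), and in 7.71% of all 35116 windows of that length. Counted by gene, it was in a window of 4 of the 7 and of 9.37% of all 27305 genes. GGGCGG, the letters of SP and KLF factors, was in 5 of the 9 windows and in 45% of all. GGAATG, the letters of TEAD factors, was in none of the 9 windows and in 14% of all. Both were searched on either strand. A match is a run of letters and no measure of binding. PLAT and THBD were not part of this search.

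F3 stood at 19.7 and 21.0 CPM in H2810 with the random hairpin and at 3.43 and 4.09 with shBAP1, a log2 fold change of -2.44 ± 0.10. In MSTO-211H it stood at 250 and 231 CPM against 62.9 and 60.1, a log2 fold change of -1.97 ± 0.06. In both lines every shBAP1 library lay below every control library, but F3 was chosen from these comparisons. The fitted fold between groups was 5.43 in H2810 and 3.91 in MSTO-211H. The F3 response difference, 0.47 ± 0.13, was called, but not with limma-voom nor when any of 4 libraries, 1 from each group, was left out (0.34 to 0.44).

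TFPI blocks the tissue factor complex. In H2810 with the random hairpin it had the highest level of the 9 per kilobase of exon, at 69.0 CPM per kb, and with shBAP1 it stood at 59.4 beside SERPINB2 at 60.3. As a level in CPM, TFPI stood at 792 and 824 with the random hairpin and at 701 and 691 with shBAP1, a log2 fold change of -0.21 ± 0.05 that was not called without random hairpin replicate 2 (-0.14) nor without a filter on low counts. In MSTO-211H it stood at 165 and 174 CPM against 124 and 121, a log2 fold change of -0.46 ± 0.05. TFPI2 stood at 107.5 and 116.5 CPM against 107.4 and 107.4 in H2810, where it was not called (-0.06 ± 0.05). In MSTO-211H, TFPI2 stood at 22.7 and 23.3 CPM against 13.3 and 14.0, a log2 fold change of -0.75 ± 0.07.

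THBD, the thrombin receptor of the protein C pathway, showed the largest fall of the 9 in MSTO-211H. It stood at 23.5 and 21.0 CPM with the random hairpin and at 2.55 and 2.86 with shBAP1, a log2 fold change of -3.03 ± 0.13 or 8.19-fold. In H2810, THBD had 4 and 3 counts against 2 and 4, a ratio of 1.14 with a 95% counting interval from 0.329 to 4.12. Those counts are too few to read a THBD response in H2810, so the 2 lines' responses are not compared here. The endothelial marker sum in MSTO-211H was 11.9 to 13.9 CPM with the random hairpin and 6.88 to 8.11 with shBAP1. CDH5 was at 0 and 0.114 CPM on average. TIE1 fell from 10.1 to 3.34 CPM on average, KDR from 0.072 to 0.022 and VWF from 0.144 to 0.068. TEK rose from 2.23 to 3.01, ESAM from 0.288 to 0.711 and PECAM1 from 0.048 to 0.228, and EMCN had no counts. The part of these markers in the THBD result was not tested.

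Over the 7 genes with enough counts in both lines, 1 response difference was called higher in MSTO-211H (F3) and 5 lower (SERPINB2, PLAT, PLAUR, TFPI and TFPI2), with SERPINE2 not called. The background was 27.7% of all genes called, 11.2% higher and 16.5% lower, and the median difference was -0.69 for the 7 and -0.0216 for all genes.

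**Figure D2:**
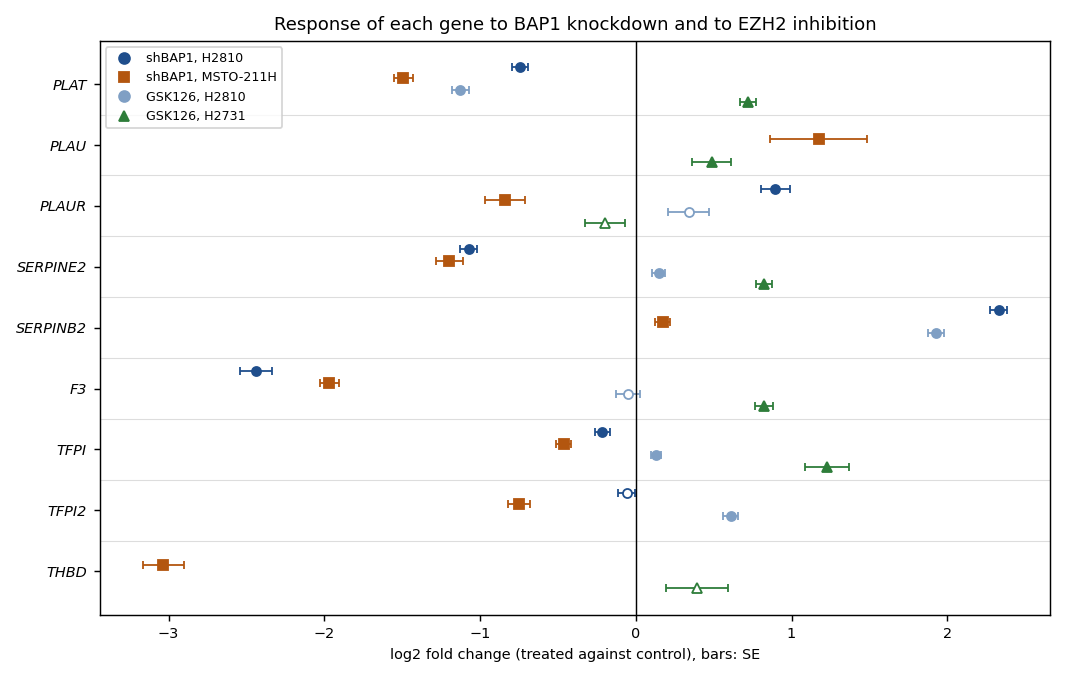
Log2 fold change of each gene, treated against control, with bars of 1 SE (n = 2 libraries a group). Filled symbols passed the threshold and open ones did not, and pairs with under 20 counts in both groups are left out. Of the SERPINB2 responses drawn, the 2 in H2810 lay at 2.33 and 1.92, and PLAT fell with GSK126 in H2810 and rose in H2731.

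The drug comparison asks what EZH2 inhibition does in a Bap1 wildtype and a Bap1 mutated line. With 1 line of each genotype, Bap1 genotype and line cannot be told apart. In H2731, SERPINE2, PLAT, PLAU, TFPI and F3 were called higher and none lower, where 24.7% of all genes were called (13.8% higher, 10.9% lower). In H2810, SERPINB2, TFPI2, SERPINE2 and TFPI were called higher and PLAT lower, where 29.3% of all genes were called (16.3% higher, 12.9% lower). The median log2 fold change was 0.722 in H2731 over the 7 genes other than SERPINB2 and TFPI2, and 0.147 in H2810 over the 7 other than PLAU and THBD, with the median of all genes at 0 in both. In H2731 the mesothelial marker sum was 5003 to 5455 CPM with DMSO and 4172 to 4220 with GSK126. The fibroblast sum there was 381 to 405 and 299 to 306 CPM, and the leukocyte sum 7.64 to 8.13 and 4.78 to 5.50. Most of the fibroblast sum was PDGFRB, which averaged 379 CPM with DMSO and 290 with GSK126. DCN, LUM and PDGFRA averaged at most 0.097 CPM and did not fall. Most of the leukocyte sum was ITGAM (3.76 and 2.56 CPM) and CORO1A (3.15 and 1.72), with PTPRC at 0.025 and 0.024. The part of these markers in the H2731 values was not tested. The H2810 comparison was among those used to choose the genes.

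**Figure D3:**
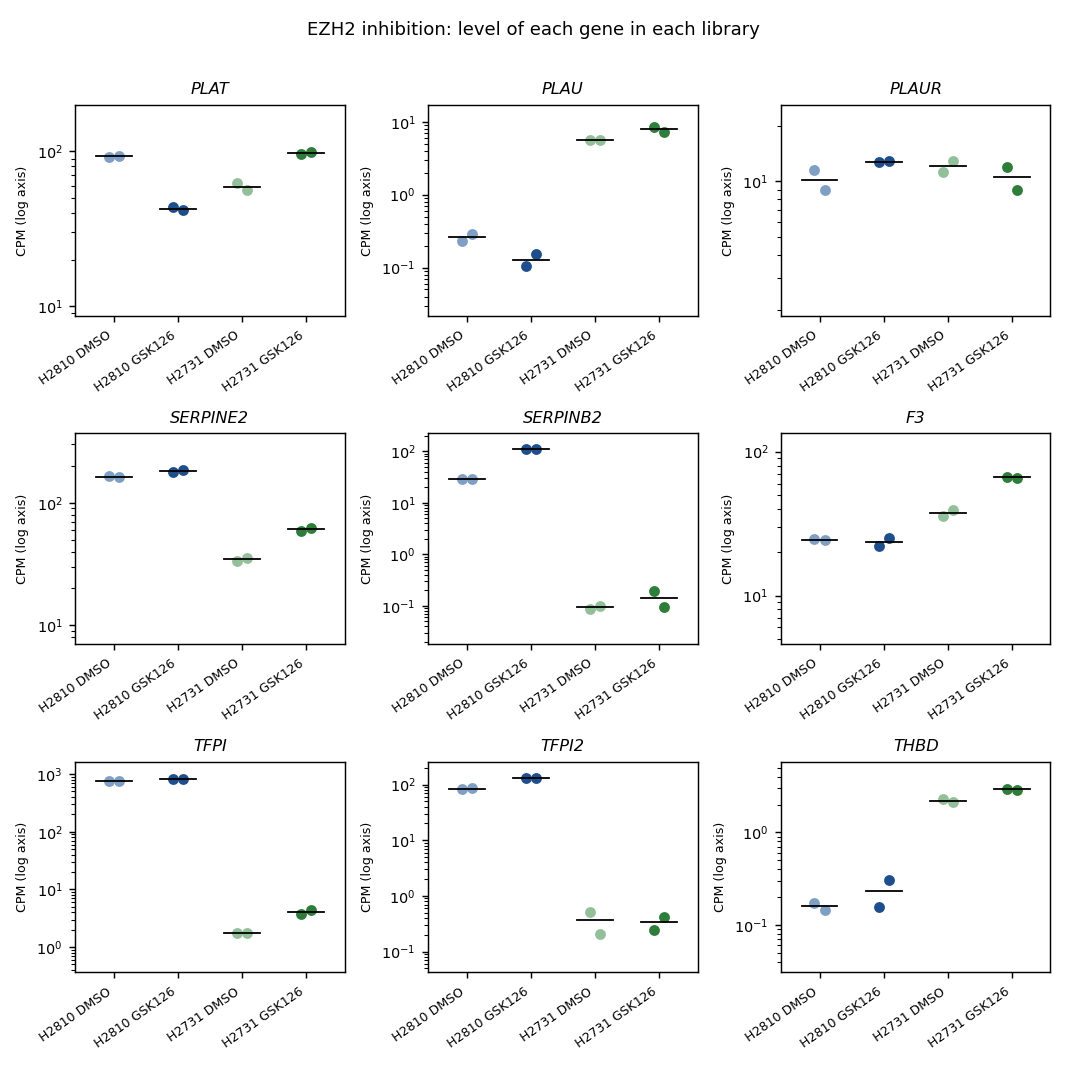
Level of each gene in each library of the drug experiment, in CPM on a log axis, with points for the 2 libraries of a group and lines for their mean. SERPINB2, TFPI and TFPI2 lay over 100-fold lower in H2731 than in H2810 under DMSO.

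PLAT went opposite ways. It stood at 62.5 and 56.2 CPM in H2731 with DMSO and at 96.7 and 99.4 with GSK126, a log2 fold change of 0.72 ± 0.05 (adjusted p = 2.67e-09, edgeR). In H2810 it stood at 91.7 and 94.1 CPM with DMSO and at 43.6 and 41.6 with GSK126, a log2 fold change of -1.13 ± 0.05. The levels in the 2 lines changed rank: PLAT was higher in H2810 under DMSO and higher in H2731 under GSK126. The response in H2731 minus that in H2810 was 1.85 ± 0.07 and was called.

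PLAU stood at 5.57 and 5.67 CPM in H2731 with DMSO and at 8.44 and 7.33 with GSK126, a log2 fold change of 0.49 ± 0.13 (adjusted p = 0.00705, edgeR). That call ended without DMSO replicate 1 (0.47), without GSK126 replicate 1 (0.38) and with DESeq2 (0.49). In H2810, PLAU had 4 and 6 counts against 2 and 3, a ratio of 2.05 toward DMSO with a 95% counting interval from 0.638 to 7.64. PLAUR, its receptor, stood at 11.2 and 12.96 CPM against 11.996 and 9.03 in H2731 and was not called (-0.20 ± 0.13, adjusted p = 0.285, edgeR). In H2810 it stood at 11.5 and 8.93 CPM against 12.7 and 12.9 and was not called (0.34 ± 0.13). It was called in H2810 with the replicate block (0.34), with only the 2 groups fitted, without a filter on low counts and without DMSO replicate 1 (0.52), and in H2731 without GSK126 replicate 1 (-0.42). The PLAUR response difference, -0.54 ± 0.18, was not called, but it was with the replicate block (-0.53), with RLE scaling, without a filter, without GSK126 replicate 1 of H2731 (-0.75) and without DMSO replicate 1 of H2810 (-0.72).

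SERPINB2 stood at 28.8 and 29.6 CPM in H2810 with DMSO and at 110.6 and 111.1 with GSK126, a log2 fold change of 1.92 ± 0.05. In H2731 it had 2 and 2 counts with DMSO and 4 and 2 with GSK126, a ratio of 1.54 with a 95% counting interval from 0.364 to 7.4. No response could be read in H2731 at that depth. SERPINE2 stood at 33.7 and 35.3 CPM in H2731 against 59.2 and 62.9 with GSK126, a log2 fold change of 0.82 ± 0.05 (adjusted p = 7.13e-10, edgeR). In H2810, at 164.7 and 161.8 CPM against 177.5 and 184, it was 0.15 ± 0.04. That H2810 call ended without GSK126 replicate 2 (0.13) and with DESeq2 (0.15).

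F3 responded in H2731 and had no call in H2810. It stood at 35.6 and 39.4 CPM in H2731 with DMSO and at 66.9 and 65.4 with GSK126, a log2 fold change of 0.82 ± 0.06 (adjusted p = 3.52e-09, edgeR). In H2810 it stood at 24.7 and 24.2 CPM against 22.0 and 25.1, with overlapping groups (-0.05 ± 0.08). The difference of the 2 responses was 0.88 ± 0.10 and was called. F3 thus fell with shBAP1 in both lines tested and rose with GSK126 in 1 of 2 lines.

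TFPI stood at 1.74 and 1.77 CPM in H2731 with DMSO and at 3.75 and 4.47 with GSK126, a log2 fold change of 1.23 ± 0.14 (adjusted p = 2.03e-06, edgeR). In H2810 it stood at 746 and 752 CPM against 817 and 824, a log2 fold change of 0.13 ± 0.03 that was not called without GSK126 replicate 2. The larger fold in H2731 started from a level over 400-fold lower. TFPI2 stood at 83.9 and 85.5 CPM in H2810 against 129.3 and 129.4 with GSK126, a log2 fold change of 0.61 ± 0.05. In H2731, TFPI2 had 12 and 4 counts against 5 and 9, a ratio of 1.12 with a 95% counting interval from 0.511 to 2.47. THBD stood at 2.31 and 2.13 CPM in H2731 against 2.93 and 2.92 and was not called (0.39 ± 0.20, adjusted p = 0.163, edgeR). In H2810, THBD had 3 and 3 counts against 3 and 6.

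Of the 5 response differences (H2731 minus H2810) of genes with enough counts in both lines, 4 were called higher in H2731 (PLAT, TFPI, F3 and SERPINE2), and that of PLAUR was not called. Over all genes 14.7% were called, 8.08% higher and 6.66% lower, and the median was 0.876 for the 5 and -0.0046 for all genes. Both responses use their own control libraries. In H2810 the endothelial marker sum was 13.6 CPM with DMSO and 22.8 to 23.5 with GSK126, with CDH5 at 0 in both, and the mesothelial sum was 3234 to 3420 and 2376 to 2395 CPM. Their part in the H2810 values was not tested.

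The largest fold changes of the 9 genes were those between lines. Of the 5 genes with enough counts in both lines under DMSO, TFPI, SERPINE2 and PLAT were called lower in H2731 than in H2810, F3 was called higher and PLAUR was not called, beside 82.2% of all genes called (41.5% higher, 40.7% lower). TFPI was lower by 426-fold (adjusted p = 2.97e-26, edgeR). For the genes in the table through 1 line alone, the count ratio toward H2810 was 312 for SERPINB2 (95% counting interval 122 to 1150) and 226 for TFPI2 (139 to 397). SERPINE2 was 4.73-fold lower (adjusted p = 2.32e-19) and PLAT 1.56-fold lower (adjusted p = 4.12e-10) in H2731 with edgeR. In the other direction the count ratio was 21.3 for PLAU (11.4 to 45.1) and 14.1 for THBD (6.23 to 39.3), and F3 was 1.53-fold higher (adjusted p = 1.05e-07, edgeR). PLAUR was not called (0.25 ± 0.13, adjusted p = 0.082, edgeR), with overlapping groups, but it was without DMSO replicate 1 of H2810 (0.43). The H2810 libraries with DMSO also served the GSK126 comparison in which PLAT stood out, so the PLAT p-value is no independent evidence.

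Under the random hairpin, 7 genes had enough counts in both lines. Of these, SERPINB2 and F3 were called higher in MSTO-211H than in H2810 and SERPINE2, TFPI2, TFPI, PLAT and PLAUR lower, beside 79.7% of all genes called (39% higher, 40.7% lower). For THBD and PLAU, in the table through MSTO-211H alone, the count ratio toward that line was 139 (67.4 to 348) and 12.9 (4.73 to 49.2). SERPINB2 was 12.9-fold higher (adjusted p = 3.64e-13) and F3 11.8-fold higher (adjusted p = 1.95e-12) with edgeR. SERPINE2 was 15.1-fold lower (adjusted p = 8.51e-13), TFPI2 4.86-fold lower (adjusted p = 1.83e-11) and TFPI 4.77-fold lower (adjusted p = 5.27e-12) with edgeR. PLAT was 2.99-fold lower and PLAUR 1.64-fold lower. These random hairpin libraries were also the controls of the shBAP1 comparisons used in the choice, so the p-values are no independent evidence.

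Per kilobase of exon, so that genes can be ordered within a line, H2810 with DMSO had TFPI at 64.0 CPM per kb, TFPI2 at 34.7 and SERPINE2 at 18.2, ahead of PLAT at 11.96, SERPINB2 at 10.6 and F3 at 9.68. In MSTO-211H with the random hairpin, SERPINB2 led at 155 CPM per kb, followed by F3 at 95.1, while TFPI stood at 14.5 and TFPI2 at 9.41. In H2731 with DMSO the order began with F3 at 14.8 and PLAT at 7.64 CPM per kb. That order rests on the exon lengths used, 2886 bases for F3 and 7770 for PLAT. In CPM, PLAT averaged 59.3 there and F3 37.5. In these control groups each line was thus led by a different gene of the set. H2810 was in both experiments, with mean levels in CPM of 29.2 (DMSO) and 32.8 (random hairpin) for SERPINB2, 163 and 240 for SERPINE2, 92.9 and 127 for PLAT, 749 and 808 for TFPI, 84.7 and 112 for TFPI2, and 24.5 and 20.4 for F3. The 2 tables were normalized separately, so these pairs are set side by side without a test.

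In the mouse, none of the 8 genes tested was called with edgeR, as none of all 12225 genes was (0%), with 823 of all genes at an unadjusted p under 0.05. With DESeq2, 359 genes were called, none of them among the 9. Of the 8, Plau alone had an unadjusted p under 0.05 (0.033, edgeR). Tfpi2 was not tested, with 2 counts in NC replicate 5 and 0 in the other 4 libraries. The libraries of 1 genotype differed widely. BNC replicates 4 and 5 were close to each other (Pearson r across genes 0.995 on log2 CPM), and BNC replicate 6 stood apart (0.84 and 0.844). The 2 NC libraries correlated at 0.889, while NC replicate 4 correlated at 0.936 and 0.937 with BNC replicates 4 and 5. The libraries thus did not group by genotype.

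**Figure D4:**
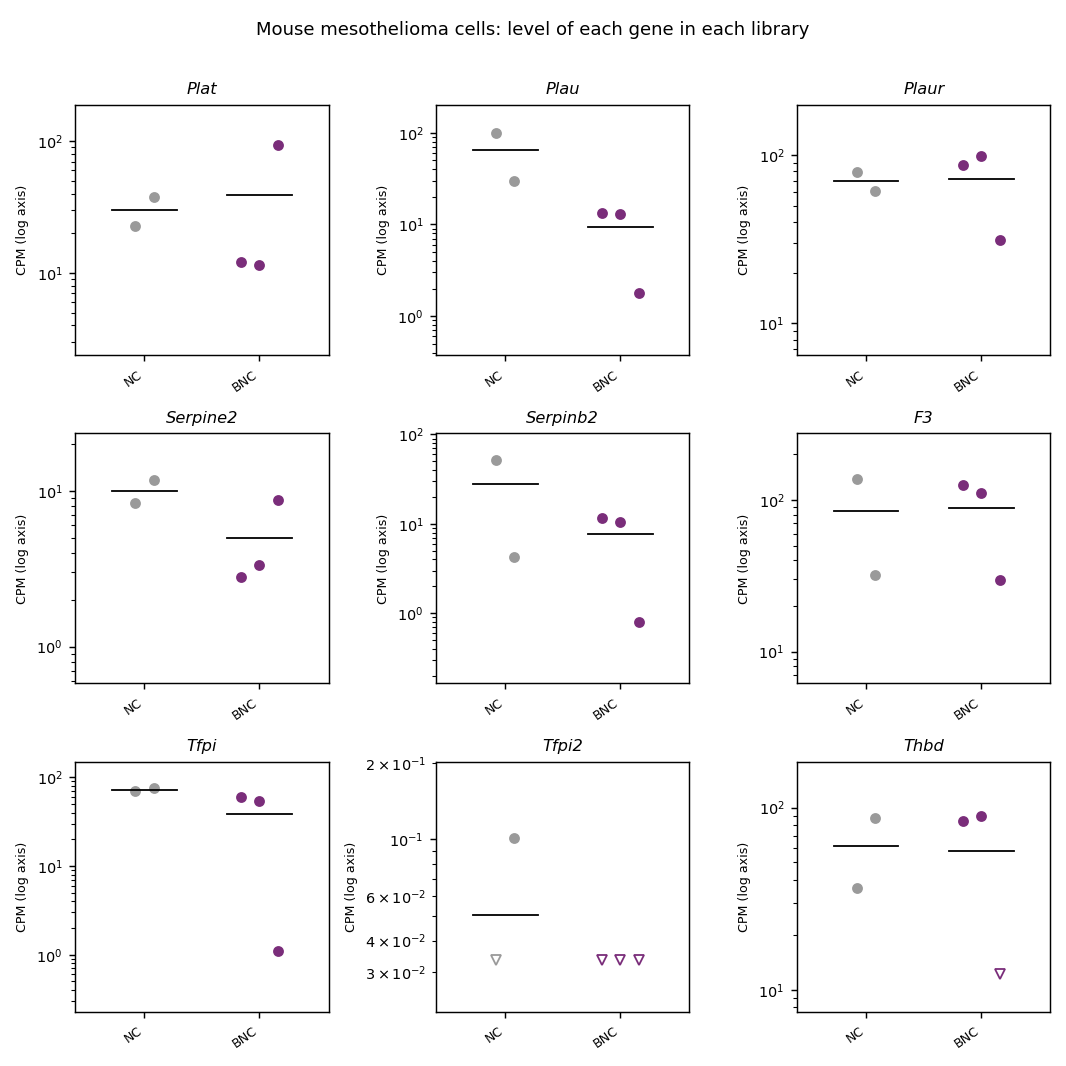
Level of each mouse ortholog in each library, in CPM on a log axis, with 3 BNC and 2 NC libraries as points and lines for the means; open triangles mark 0 counts. For Plau and Tfpi the BNC libraries all lay below the NC libraries, and BNC replicate 6 stood apart for most genes.

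Plau stood at 13.4, 12.96 and 1.80 CPM in BNC and 99.97 and 29.6 in NC, a log2 fold change of -2.79 ± 0.96 (adjusted p = 0.68, edgeR), and Tfpi at 59.5, 53.7 and 1.10 against 70.0 and 75.1. These 2 were the only ones of the 8 whose groups did not overlap, beside 24% of all 12225 genes tested. Thbd stood at 84.3 and 89.5 CPM in BNC replicates 4 and 5, had 0 counts in BNC replicate 6, and stood at 36.4 and 87.3 in NC. F3 stood at 124, 111 and 29.7 CPM in BNC and 137 and 32.2 in NC, and Plat at 12.1, 11.4 and 93.7 against 22.8 and 37.8. BNC replicate 6 was the lowest BNC library for Plau, Tfpi, Thbd, F3, Serpinb2 and Plaur and the highest for Plat and Serpine2. The summed endothelial markers were 1.23 to 3.79 CPM in BNC and 9.99 and 57.2 in NC. Most of the NC sum was Kdr, at 9.84 and 49.8 CPM, against 0.044 to 3.29 in BNC. Pecam1 was at most 0.088 CPM in any mouse library, and Tie1 and Emcn had no counts. Cdh5 had 1 count over the 3 BNC libraries and 0 in NC. The fibroblast sum was 437, 558 and 5855 CPM in BNC replicates 4, 5 and 6, and 1873 and 4355 in NC. Of that sum, Col1a1 alone ran from 434 to 5716 CPM in BNC. The mesothelial sum was 838, 908 and 133 CPM in BNC replicates 4, 5 and 6, and 974 and 2278 in NC. The part of all these markers in the Thbd and Tfpi values was not tested.

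The wider pathway was followed with 53 other fibrinolysis and coagulation genes, of which 31 were tested in the human tables and 22 of 51 found in the mouse. With shBAP1, 8 of the 31 were called higher and 12 lower in H2810, where 45.8% of all genes were called, and 7 higher and 8 lower in MSTO-211H, where 46.2% were. With GSK126, 7 were called higher and 8 lower in H2810 (29.3% of all genes called) and 8 higher and 1 lower in H2731 (24.7%). Between lines, each against H2810, 5 were called higher and 19 lower in H2731 (82.2% of all genes called, 41.5% higher and 40.7% lower). In MSTO-211H, 5 were higher and 21 lower (79.7% of all genes called, 39% higher and 40.7% lower). Genes tested through 1 line alone had to differ between lines and were not removed from these counts. SERPIND1 and FGG, at 0 CPM in H2731 with DMSO, are examples. The counts between lines are therefore printed for scale only. No gene of this list was called in the mouse by edgeR, and 7 of the 22 had groups that did not overlap, beside 24% of all genes.

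PROCR, the protein C receptor that works with THBD, stood at 8.18 and 8.97 CPM in MSTO-211H with the random hairpin and at 1.59 and 1.41 with shBAP1, a log2 fold change of -2.51 ± 0.18. ANXA5, which covers the phospholipid on which coagulation complexes form, fell by 1.41 ± 0.05 in MSTO-211H and by 0.80 ± 0.05 in H2810. TGM2, a transglutaminase, rose by 1.79 ± 0.06 in MSTO-211H, and was not called in H2810 (0.01). In H2810 with shBAP1, THBS1, thrombospondin 1, fell by 1.48 ± 0.09, PROS1, the cofactor of activated protein C and of TFPI, fell by 1.05 ± 0.06, and SERPINB8 rose by 0.60 ± 0.08. All 3 were called in the same direction in MSTO-211H (-0.68 ± 0.11, -0.89 ± 0.07 and 0.41 ± 0.07). With GSK126, PROS1 rose by 0.80 ± 0.06 in H2810 and by 0.82 ± 0.06 in H2731 (adjusted p = 8.14e-09, edgeR). The thrombin receptor F2R rose by 0.44 ± 0.03 in H2810 and by 0.87 ± 0.04 in H2731 (adjusted p = 6e-12, edgeR). S100A10 and ANXA2, which form a plasminogen-binding complex, fell by 0.69 ± 0.03 and 0.41 ± 0.03 in H2810 and were not called in H2731. THBS1 rose by 0.35 ± 0.04 in H2731 and fell by 0.38 ± 0.04 in H2810, both called. ANXA5 rose by 0.23 ± 0.03 in H2731 and was not called in H2810 (0.08 ± 0.03).

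Across the 16 human libraries and 11326 genes, the non-members with the pattern most like F3 were CCDC34, SENP6 and DNPEP (Pearson r 0.971, 0.966 and 0.965). For THBD they included DR1 and LOXL1-AS1 (0.979 each), for SERPINB2 TMEM158, MPI and ARIH2 (all 0.989), and for SERPINE2 ZNF836, MMD and ZW10 (0.991, 0.99 and 0.99). The libraries of a line and an experiment share their origin, and these values mostly follow the differences between the 3 lines.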

How the data were processed

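RNA was isolated with a column kit and poly-A libraries were sequenced as single-end reads, per the labels' protocols. The deposited values are raw counts of reads per gene, with no normalization by the authors. The submitters' processing notes name TopHat2 2.0.12, TopHat, HTSeq and DESeq2 and the mouse builds mm10 and GRCm38, with no role given. The human build, annotation, strand setting and treatment of multiply matching reads are not given in the sources used here. A line of the knockdown table naming no gene held 0 counts and was left out.

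For each table, 1 edgeR model (version 4.0.16, R 4.3.3) held all groups: filterByExpr, TMM scaling, quasi-likelihood F tests and Benjamini-Hochberg adjustment over all genes tested (12225 in the mouse, 15999 in the drug and 15872 in the knockdown table). The SE is the log2 fold change over the square root of F. Levels per kilobase use the union of GENCODE exons. Counting intervals are exact binomial ones at 95% and cover counting error only. The fit was tested on simulated data. The genes, the lists and the alternatives were chosen with earlier results of these data known. Named beyond the 9 were BAP1, up to 4 called genes of the wider list per comparison (smallest p, mean log2 CPM of at least 1), of which not all are printed, and the 3 genes most like F3, THBD, SERPINB2 and SERPINE2. Of the genes this rule names, 2 are not reported here. Alternatives were RLE scaling, no filter, a stricter filter (50 counts or more in no fewer than 2 libraries), limma-voom 3.58.1, DESeq2 1.42.0, only the 2 groups compared, the replicate block and leaving out each library. Residuals of same-numbered libraries correlated at -0.0646 to 0.0979 in the human tables and at 0.336 and -0.306 in the mouse, so same-numbered libraries were treated as unpaired.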

Additional observations from a re-analysis of the deposited data

Results flagged for a closer look

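The response to GSK126 differed between H2731 and H2810 for 4 genes by edgeR's interaction term. The difference on the log2 scale, H2731 minus H2810, was 1.85 ± 0.07 (SE) for PLAT, 1.10 ± 0.14 for TFPI, 0.88 ± 0.10 for F3 and 0.68 ± 0.07 for SERPINE2. PLAT moved in opposite directions in the 2 lines, and TFPI started from 1.74 and 1.77 CPM in H2731.

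The response to shBAP1 differed between MSTO-211H and H2810 for 6 genes with over 20 counts in each group. The difference, MSTO-211H minus H2810, was -2.16 ± 0.07 for SERPINB2, -1.74 ± 0.16 for PLAUR, -0.75 ± 0.08 for PLAT and -0.69 ± 0.09 for TFPI2. For TFPI it was -0.25 ± 0.07 and for F3 0.47 ± 0.13. The same term passed for THBD (-2.85 ± 0.77), but THBD had 7 and 6 counts in the 2 groups of H2810 and is in the table through MSTO-211H alone, so no response could be read in H2810. It did not pass without shBAP1 replicate 2 of H2810 (-2.22). The TFPI difference was not called with RLE scaling (-0.24) nor without random hairpin replicate 2 (-0.22), shBAP1 replicate 1 (-0.27) or shBAP1 replicate 2 (-0.24) of MSTO-211H. Values of the comparisons behind these differences were known when the genes were chosen, so they are no independent evidence.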

How the results depend on the processing

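Of 928 values of the 9 genes under an alternative, 871 kept their direction and side of the threshold, 23 lost their call, 11 gained one and 23 changed sign. The number of the 9 called with GSK126 in H2810 was 5, and 3 to 6 when 1 library was left out. The replicate block left the count of called members at 6 and 9 for shBAP1 in H2810 and MSTO-211H, at 5 for GSK126 in H2731, and moved it from 5 to 6 in H2810. All values that changed sign belong to results that were not called. In the mouse, Plat was -0.31 with limma-voom and -1.32 with the replicate block, Plaur -0.12 with limma-voom and Thbd 0.62 with the replicate block. Thbd moved from -0.10 to -3.65 and Tfpi from -0.93 to -2.34 with limma-voom, neither called. Leaving out 1 library at a time gave, in the mouse, F3 -0.64 to 1.46, Plat -1.38 to 0.82, Plaur -0.25 to 0.40, Serpinb2 -2.75 to 0.85 and Thbd -0.59 to 0.67. With shBAP1 in H2810 it gave PLAU -4.04 to 0.51, TFPI2 -0.11 to 0.042 and THBD -0.81 to 0.30. With GSK126 it gave F3 -0.15 to 0.042 and THBD -0.013 to 0.92 in H2810, and TFPI2 -0.63 to 0.71 in H2731. For the GSK126 response difference it gave TFPI2 -1.25 to 0.099 and THBD -0.53 to 0.41. Over all genes, DESeq2 called 359 in the mouse, 1277 response differences to GSK126 (edgeR 2358), 1909 genes with GSK126 in H2731 (edgeR 3959) and 2527 in H2810 (edgeR 4681). In the mouse the replicate block called 1. For GSK126 in H2731, leaving out 1 library gave 2338 to 3185. With 2 libraries a group, and few counts of PLAU and THBD in H2810 and of SERPINB2 and TFPI2 in H2731, no response of these was detectable there.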
